A study of Oryza sativa with 5 samples.

Results

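The hybrid FU, which over-expressed the rice gene OsHDT1, was compared with the unmodified hybrid SY63 by tag sequencing of seedling mRNA. All genes with a tag in the FU or the SY63 library were taken, which gave 21314 of the 22546 genes counted in the series. SY63 is the cross of the indica rice lines ZS97 (female) and MH63 (male). FU came from ZS97 plants pollinated by a transgenic MH63 plant that carried the full OsHDT1 cDNA behind the maize ubiquitin promoter, a promoter that is active in most rice tissues. FR, used here only for side values, carried an OsHDT1 RNAi construct behind the 35S promoter of cauliflower mosaic virus. The sample labels write FV for FU. Seedlings of all 5 genotypes (MH63, ZS97, SY63, FU and FR) were 15 days old and were grown on 1/2 MS medium with 15 h of light at 30 °C and 9 h of darkness at 25 °C. According to the study, the seedlings were harvested in the afternoon of the subjective day. Each genotype had 1 library. The transgenic line behind the FU library and the number of seedlings in it are not given in the sources used here, and the place of the construct in the genome is unknown.

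OsHDT1 (LOC_Os05g51830) belongs to the HD2 class of histone deacetylases, which is found only in plants. Histone deacetylases remove acetyl groups from histone tails, and loss of histone acetylation is generally linked with less transcription of the gene concerned. The deposited description calls the gene ZOS5-12, a C2H2 zinc finger protein, and such a finger is known from several HD2 proteins. The construct was made from the coding region, which the primers below delimit. Capitals mark the restriction sites added for cloning (KpnI forward, BamHI reverse). The remaining bases of the forward primer hold 9 bases ahead of the start codon atg, and the reverse primer begins, after its site, with the complement of the stop codon TGA. They are shown because they define which OsHDT1 sequence was added to FU.
forward: GGTACCccgattccgatggagttctg
reverse: GGATCCtcacttggcggggtgcttgg

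OsHDT1 had 7590 tags in FU, 428 in SY63 and 142 in FR. The parents had 2633 tags in MH63 and 304 in ZS97. On the scale of TPM, the tags of a gene scaled to a fixed total of clean tags, the level was 1574 TPM in FU against 88.1 TPM in SY63, a ratio of 17.9 (log2 ratio 4.16, 95% interval 4.02 to 4.30). FU was thus the highest of the 5 libraries and SY63 lay between the parents. The counts do not separate transcripts of the construct from those of the native gene. No other histone deacetylase passed the test between FU and SY63. Of the 9 described as a histone deacetylase, or as a subunit of its complex, with at least 20 tags over both libraries, 5 had a log2 ratio above 0 and 4 below. Their median was 0.17. The extremes were SAP18 (LOC_Os02g02960), a subunit of a deacetylase complex, with 360 tags in FU and 212 in SY63, and LOC_Os12g08220, with 251 and 422 tags.

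The libraries held 4821637 clean tags in FU and 4857063 in SY63, and between 4957343 and 5022081 in the other 3. Between 69.5% and 73.9% of the clean tags lay on genes. A tag is the 21 bases that begin with the NlaIII site CATG nearest the 3′ end of a cDNA, so that its copies count transcripts with no correction for length. The smallest count above 0 was 2 tags, and a count of 0 allows up to 3 tags, or 0.622 TPM in FU and 0.618 TPM in SY63. Intervals cover counting error only, and amplified tags are not independent molecules. With 1 library on each side no difference has a replicate check, and every test compares these libraries, not the genotypes. In whole seedlings, fewer cells of a type and less RNA per cell cannot be told apart.

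In all, 640 genes were called different between FU and SY63. Of the genes tested, 467 (2.19%) were called higher and 173 (0.812%) lower in FU. A call needed a log2 ratio of 1 or more in size and a false discovery rate no greater than 0.001. The genes called higher summed to 27045 TPM in FU and 9127 TPM in SY63. Those called lower summed to 3934 TPM in FU and 9157 TPM in SY63. Most genes did not change by this much: of 15807 genes with at least 20 tags over both libraries, 89.3% had a ratio within 1 log2 unit, and their median log2 ratio was 0.05. The number of calls depends on how far replicate libraries are taken to vary. With an assumed biological coefficient of variation of 0.1, edgeR's exact test called 219 genes higher and 52 lower, and with 0.2 it called 33 higher and 3 lower.

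**Figure D1:**
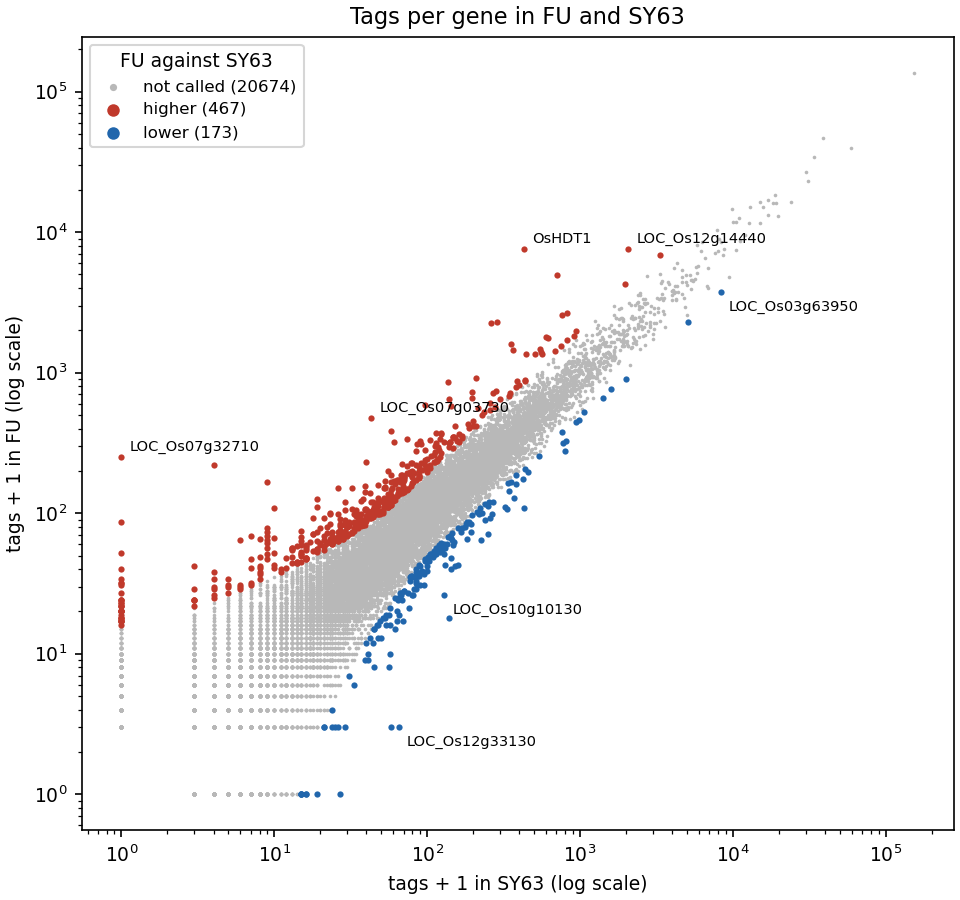
Tags of each gene plus 1 in SY63 (x axis, log scale) and in FU (y axis, log scale). Each point is a gene with a tag in either library, red where it was called higher in FU (467), blue where called lower (173) and grey otherwise. OsHDT1 stands apart at 428 tags in SY63 and 7590 in FU, and genes that were at 0 in SY63 form the column at the left edge, reaching 250 tags in FU for LOC_Os07g32710.

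The FU and SY63 libraries also differed in how much they held of transcripts counted in only 1 of the parents. Of 76 genes with at least 50 tags in MH63 and none in ZS97, 66 had a higher level in FU than in SY63, and 12 (15.8%) were called higher and 0 lower. Relative to MH63, their median level was 18.3% in the SY63 library, 32.5% in FU and 29.8% in FR. The other set, 70 genes that had 50 tags or more in ZS97 and none in MH63, went the other way. Of these, 59 were lower in FU than in SY63, and 9 (12.9%) were called lower and 0 higher. Relative to ZS97, their median level was 63.3% in the SY63 library, 43.4% in FU and 45.3% in FR. FU and FR thus sat closer to each other than to SY63 in both sets. Whether the SY63 seedlings had the same parental make-up as those of FU was not tested, and every ratio of FU to SY63 rests on it. A gene can be counted in 1 parent only because its tag differs from the reference in the other parent, or because it is not transcribed there, which the counts do not separate.

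Genes that differed between the parents made up a larger share of the calls than of all genes. Of the 467 genes called higher in FU, 109 (23.3%) were higher in the MH63 library than in that of ZS97 by the same rule and 37 (7.92%) were lower, against 10.2% and 6.62% of all genes tested. Of the 173 genes called lower in FU, 24 (13.9%) were higher in MH63 and 37 (21.4%) were higher in ZS97. Without the genes called between the parents, 321 genes remained higher and 112 lower. The part of this parental difference in the results that follow was not tested, so the parents' tags are given beside many of the genes. FU was above both parents for 361 of the 467 genes called higher and below both for 89 of the 173 called lower, against 7695 and 5270 of all 21314 genes. SY63 was below both for 226 of the 467 and above both for 102 of the 173, against 5612 and 6502 of all genes. The calls chose genes by their FU and SY63 levels, and that choice favours larger counts here than among all genes. FR was below SY63 for 158 of the 173 genes called lower in FU, against 11242 of all genes. It was above SY63 for 340 of the 467 called higher, against 9195 of all genes. FU and FR were set against the same SY63 library, so a high or low SY63 count moves both to the same side.

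**Figure D2:**
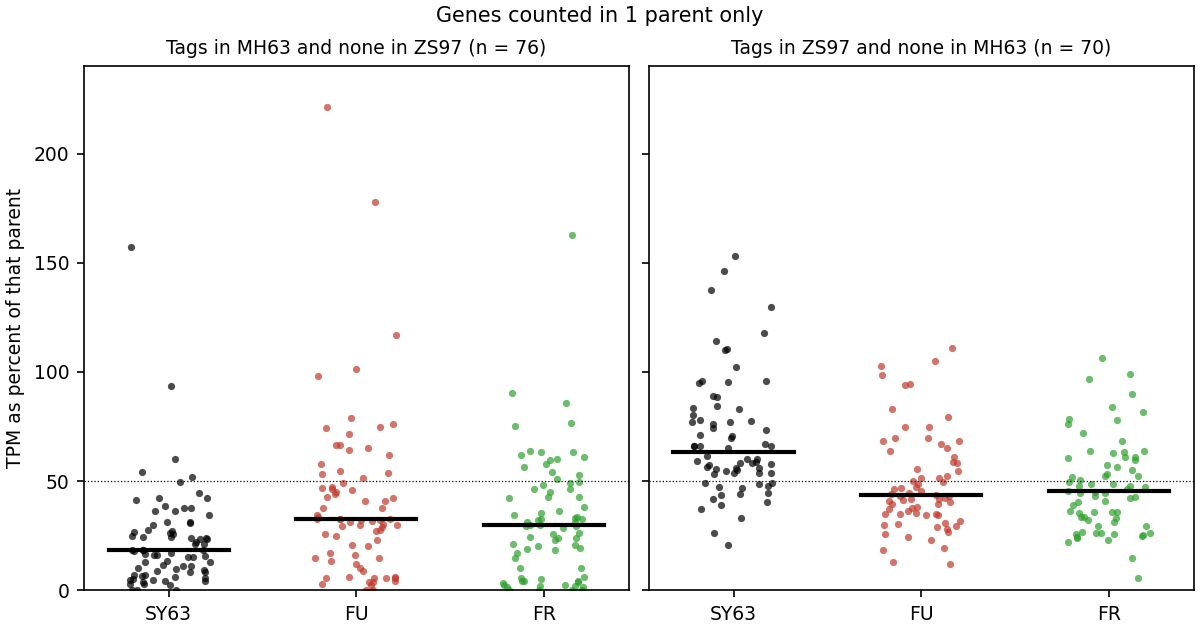
TPM in SY63, FU and FR as percent of the parent's TPM (y axis), for 76 genes with at least 50 tags in MH63 and none in ZS97 (left) and 70 genes with 50 tags or more in ZS97 and none in MH63 (right). Points are genes, bars are medians, and the dotted line is at 50%. The medians of FU (32.5% and 43.4%) lie nearer to those of FR (29.8% and 45.3%) than to those of SY63 (18.3% and 63.3%).

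Genes were sorted into 60 functional classes by words in their deposited descriptions, and each class was read against all 15807 genes with at least 20 tags over both libraries. Of these, 2.87% were called higher and 1.05% lower. In 43 classes more members were called higher than lower, and in 8 classes more were called lower. The highest medians were those of lectins (1.89), Bowman-Birk inhibitors (1.71), laccases (1.16) and SCP-like extracellular proteins (1.11). Next came phenylalanine ammonia-lyase (0.94) and the class of lipoxygenases and jasmonate enzymes (0.84). Other protease inhibitors (0.07) and the ethylene class (0.21) lay nearer to the median of all genes (0.05). The clearest low median was that of the histones (-0.53), and FR was low in this class as well, with a median log2 ratio to SY63 of -0.35. Medians are those of the members with at least 20 tags, and members at or near 0 tags in 1 library do not move them, since only their side of the median matters.

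**Figure D3:**
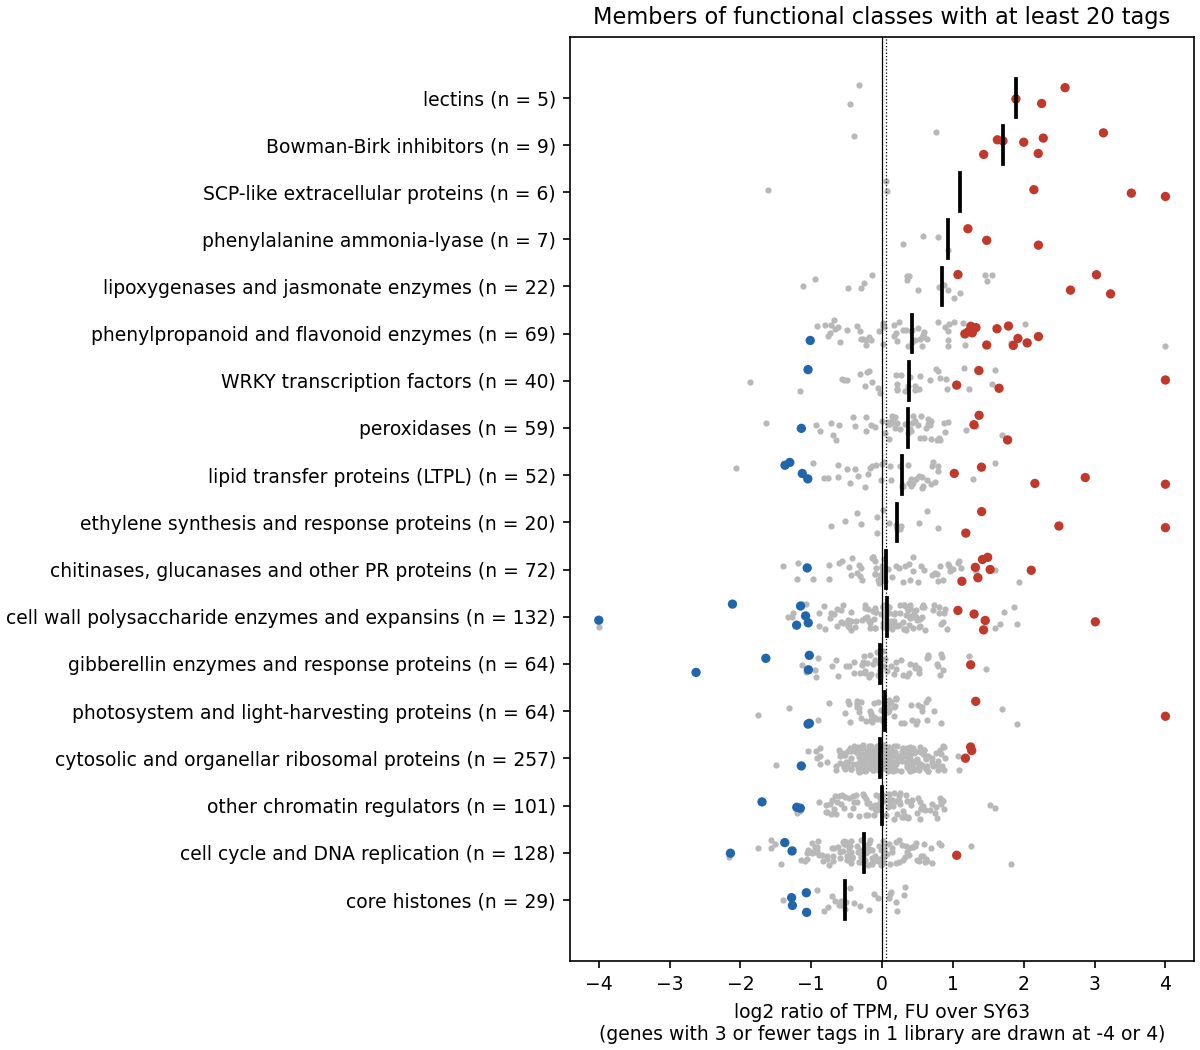
Log2 ratio of TPM, FU over SY63 (x axis), of each member with at least 20 tags over both libraries in 18 of the 60 classes, with the number of members in brackets. Red points were called higher in FU, blue points lower, grey points neither, the thick bar is the class median and the dotted line is the median of all such genes (0.05). The members of the 5 classes drawn at the top lie mostly to the right, with medians between 0.84 and 1.89, and the core histones lie mostly to the left, with a median of -0.53.

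Bowman-Birk inhibitors are small, cysteine-rich proteins that block trypsin-like proteases and are induced by wounding in many grasses. All 9 genes of this class had at least 20 tags, and 7 were called higher in FU and 0 lower, with a median log2 ratio of 1.71. Together they had 11258 tags in FU, 3176 in SY63, 3272 in FR, 4049 in MH63 and 3739 in ZS97. BBTI2 (LOC_Os01g03320) changed most, with 2251 tags in FU and 260 in SY63, beside 160 in FR, 356 in MH63 and 904 in ZS97. Its ratio was 8.72 (log2 3.12, 95% interval 2.94 to 3.32). FU was above both parents for this gene, as it was for BBTI1 (LOC_Os01g03310), with 2670 tags in FU, 824 in SY63, 1210 in MH63 and 1048 in ZS97. BBTI5 (LOC_Os01g03360) had 1610 tags in FU and 352 in SY63, and BBTI12 (LOC_Os01g04050) had 1445 and 364. BBTI3 (LOC_Os01g03330) was less abundant, with 149 tags in FU and 31 in SY63. Its MH63 count of 131 was near that of FU.

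The Bowman-Birk genes called higher are mostly neighbours. On chromosome 1, the 6 loci from LOC_Os01g03310 to LOC_Os01g03390 that had 20 tags or more over both libraries were all called higher. This was the longest unbroken run of calls among such loci in either direction. It included BBTI4 (LOC_Os01g03340), with 1352 tags in FU and 504 in SY63, and BBTI7 (LOC_Os01g03390), with 1359 and 443. BBTI8 (LOC_Os01g03680), on the same chromosome, did not pass, with 223 tags in FU and 133 in SY63. BBTI13 (LOC_Os03g60840), on chromosome 3, had 199 tags in FU and 265 in SY63. Tags shared by near-identical members were removed by the authors, so the count of each member rests on bases particular to it. Among 12 other protease inhibitors matched by the word list, 0 were called, and their median log2 ratio was 0.07. The list did not take in the genes described as inhibitor I family proteins. Neighbouring genes of that description on chromosome 12 were called higher in FU and are given under the other observations.

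Lectins bind sugars, and jacalin-like lectins of grasses include proteins induced by wounding and by defence hormones. Of 5 lectins with at least 20 tags, 3 were called higher and 0 lower, with a median of 1.89. LOC_Os12g14440 had 7585 tags in FU and 2063 in SY63, a ratio of 3.70 (log2 1.89, 95% interval 1.82 to 1.96). It had only 48 tags in MH63 and 76 in ZS97, so all 3 hybrids, including FR with 1636 tags, were far above both parents. LOC_Os12g09700 was also far higher in the hybrids than in the parents, but with FR above SY63, at 232 tags in FU, 39 in SY63, 82 in FR, 2 in MH63 and 5 in ZS97. LOC_Os01g24710 differed from these in its parents: it had 648 tags in FU and 137 in SY63, and 735 in MH63 against 16 in ZS97.

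SCP-like extracellular proteins include the PR1 family, secreted proteins that accumulate when plants respond to pathogens. Of 6 such genes with at least 20 tags, 3 were called higher and 0 lower in FU. LOC_Os07g03730 had 478 tags in FU and 42 in SY63, a ratio of 11.5 (log2 3.52, 95% interval 3.06 to 4.01), the largest after OsHDT1 where both libraries held 20 tags or more. It had 1550 tags in MH63 and 0 in ZS97, and 32 in FR. LOC_Os07g03710 had 57 tags in FU, 13 in SY63, 78 in MH63 and 0 in ZS97. LOC_Os07g03319 had 23 tags in FU and 2 in SY63. All 3 lie in a row on chromosome 7 among loci with 20 tags or more, and the FU level of LOC_Os07g03730 and LOC_Os07g03710 lay between those of the parents. The member with the lowest ratio, LOC_Os03g52300, had 14 tags in FU and 43 in SY63 and was not called.

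Chitinases, glucanases, thaumatin-like and hevein-like proteins attack or bind fungal cell walls and are classed as pathogenesis-related (PR) proteins. Of 72 with at least 20 tags, 7 were called higher and 1 lower, while their median of 0.06 was close to that of all genes. HEV2 (LOC_Os04g41640), a hevein family protein, had 403 tags in FU and 186 in SY63. A glycosyl hydrolase of family 17 (LOC_Os01g71340), the family of the beta-1,3-glucanases, had 294 and 116 tags, beside 641 in MH63 and 81 in ZS97. A thaumatin family gene (LOC_Os12g43450) had 220 and 83. The gene called lower, LOC_Os05g31140, belongs to family 17 as well and had 206 tags in FU and 432 in SY63. Another glycan-directed protein, the xylanase inhibitor LOC_Os06g24990, had 383 tags in FU, 57 in SY63, 78 in FR, 52 in MH63 and 72 in ZS97. Only FU stood apart in this gene, at a ratio of 6.77 to SY63 (log2 2.76, 95% interval 2.35 to 3.19).

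Lipoxygenases add oxygen to fatty acids, the first step towards jasmonate and other oxylipins, and allene oxide cyclase and 12-oxophytodienoate reductase act further along that path. Of 22 genes of this class, 4 were called higher and 0 lower, with a median of 0.84. Lipoxygenase 2.1 (LOC_Os12g37260) had 2289 tags in FU, 283 in SY63, 138 in FR, 33 in MH63 and 256 in ZS97. Its ratio was 8.15 (log2 3.03, 95% interval 2.85 to 3.21). A second lipoxygenase, LOC_Os03g52860, had 853 tags in FU, 136 in SY63 and 44 in FR, with 5 in MH63 and 0 in ZS97. Both were highest in FU, next in SY63 among the hybrids and lowest in FR. The allene oxide cyclase LOC_Os03g32314 had 415 tags in FU and 199 in SY63, and the reductase LOC_Os06g11210 had 65 and 7. Other members were not called, among them the lipoxygenase LOC_Os05g23880, with 200 tags in FU and 247 in SY63. ZIM domain proteins, the group of the repressors of jasmonate response, were not called. LOC_Os03g28940 had 333 tags in FU and 257 in SY63, and LOC_Os03g08330 had 76 and 147.

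Phenylalanine ammonia-lyase opens the phenylpropanoid pathway, which leads to lignin, flavonoids and antimicrobial phenolics. All 7 of its genes were higher in FU than in SY63, 3 of them called, with a median log2 ratio of 0.94. The called genes were not the most abundant ones. They were LOC_Os05g35290 with 315 tags in FU and 137 in SY63, LOC_Os04g43800 with 105 and 38, and LOC_Os02g41670 with 55 and 12. FR had 193, 82 and 52 tags in these genes, in that order, and LOC_Os02g41670 was called higher in FR too. ZS97 had 134 tags of LOC_Os04g43800, more than FU. Over the 7 genes the median log2 ratio of FR to SY63 was 0.34, and that of FU to FR was 0.60. The most abundant, LOC_Os02g41630, had 3568 tags in FU and 2403 in SY63 and was not called, since its log2 ratio stayed below 1. In MH63 it had 6279 tags.

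Among 69 enzymes of phenylpropanoid and flavonoid synthesis, a class that includes the ammonia-lyases, 12 were called higher and 1 lower, with a median of 0.43. LOC_Os07g34260 is described as chalcone and stilbene synthases, a family that includes the first enzyme of the flavonoid branch. It had 583 tags in FU, 142 in SY63, 145 in FR, 36 in MH63 and 148 in ZS97, a ratio of 4.14. LOC_Os04g23940, described as chalcone synthase, was called higher in FU too, with 43 tags against 12 in SY63. FR had the most tags of this gene, at 206, with 7 in MH63 and 0 in ZS97. Cinnamoyl-CoA reductase, the first step of the lignin branch (LOC_Os08g34280), had 612 tags in FU and 255 in SY63. Here FR, with 572 tags, lay close to FU. A pair of neighbouring dioxygenases described as acting on naringenin, LOC_Os04g49194 and LOC_Os04g49210, had 105 tags against 28 and 189 against 76. Flavonol synthase LOC_Os10g40934 had 203 tags in FU and 91 in SY63, with 330 in MH63. The enzyme called lower was a leucoanthocyanidin dioxygenase (LOC_Os02g17940), with 56 tags in FU and 114 in SY63. Peroxidases had 3 members called higher and 1 lower of 59, with a median of 0.37. Laccases, which can oxidise lignin precursors, had a median of 1.16 over 6 members, with 1 called higher and 0 lower. Their median log2 ratio of FU to FR was 0.13. All laccase genes together had 588 tags in FU, 513 in SY63, 590 in FR, 1184 in MH63 and 612 in ZS97. Cytochrome P450 enzymes had 4 called higher and 0 lower of 99, with a median of 0.26.

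Ethylene is made by 1-aminocyclopropane-1-carboxylate (ACC) oxidase and is perceived by membrane receptors. Of 20 genes, 4 were called higher and 0 lower, and the median was 0.21. The ACC oxidase LOC_Os09g27820 had 85 tags in FU and 0 in SY63, which is at least 28.5-fold higher, with 18 tags in FR, 56 in MH63 and 2 in ZS97. LOC_Os05g05680, also an ACC oxidase, had 71 tags in FU and 27 in SY63, and a homolog (LOC_Os04g10350) had 340 and 151. An ethylene receptor (LOC_Os05g06320) had 28 and 5. The most abundant receptor, LOC_Os03g49500, had 799 tags in FU and 843 in SY63.

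In the gibberellin class 4 of the 5 calls were lower in FU. Gibberellins promote stem growth, gibberellin 2-beta-dioxygenase inactivates them and GASR proteins respond to them. Of 64 genes, 1 was called higher and 4 lower, while 30 had a log2 ratio above 0 and 34 below, and the median was -0.03. The 2-beta-dioxygenase LOC_Os05g11810 had 185 tags in FU and 380 in SY63. GASR2 (LOC_Os03g41060) had 42 and 87, and GASR10 (LOC_Os09g24840) had 14 and 44. Neighbouring loci described as gibberellin receptor GID1L2 went in opposite directions. LOC_Os07g06830 had 111 tags in FU and 47 in SY63, whereas LOC_Os07g06860 had 9 and 56. Of 24 cytokinin genes 2 were called higher and 0 lower, among them a cytokinin dehydrogenase (LOC_Os01g56810), which breaks the hormone down, with 66 tags in FU and 9 in SY63. Auxin response proteins had 2 called higher and 0 lower of 86, with a median of 0.08.

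WRKY proteins are transcription factors that often act in defence. Of 40, 4 were called higher and 1 lower, with a median of 0.38. OsWRKY65 (LOC_Os12g02470) had 197 tags in FU and 77 in SY63, with 83 in FR, 3 in MH63 and 15 in ZS97. OsWRKY67 (LOC_Os05g09020) had 138 and 67, and OsWRKY55 (LOC_Os03g20550) had 53 and 17. OsWRKY8v2 (LOC_Os05g50610) had 31 tags in FU and 0 in SY63, at least 10.4-fold higher. OsWRKY74 (LOC_Os09g16510) was lower, with 101 tags in FU and 210 in SY63.

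Other families of transcription factors had medians near that of all genes. Helix-loop-helix factors had 3 members called higher and 0 lower of 59, with a median of -0.01. LOC_Os01g38610 of this family had 151 tags in FU, 138 in FR, 153 in MH63, 91 in ZS97 and only 25 in SY63. SY63 was thus the library that stood apart in this gene. NAC factors had 3 called higher and 1 lower of 48. The largest ratio of the 3 was that of LOC_Os11g08210, with 122 tags in FU and 36 in SY63, and the most abundant was LOC_Os01g70110, with 154 and 68. MYB factors had 4 called higher and 3 lower of 116. The most abundant of those called, LOC_Os01g74020, had 1821 tags in FU and 913 in SY63, and LOC_Os02g22020 had 2 tags in FU and 57 in SY63. For the latter the ratio of SY63 to FU was 28.3, with a counting interval from 7.48 to 239. AP2 factors had 2 called higher and 1 lower of 65, and C2H2 zinc finger proteins, OsHDT1 included, had 6 higher and 1 lower of 83. GIGANTEA (LOC_Os01g08700), a clock protein that acts on flowering time, was not called, with 1845 tags in FU and 2010 in SY63. Of 48 clock, B-box and related proteins 1 was called higher and 0 lower.

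The called genes of nitrogen assimilation went in opposite directions, while the median of the class was 0.11. Asparagine synthetase (LOC_Os03g18130), which makes the amide used to store and move nitrogen, had 322 tags in FU and 60 in SY63, a ratio of 5.41 (log2 2.43, 95% interval 2.03 to 2.86). FR had 63 tags, MH63 303 and ZS97 68, so that FU was near MH63. Nitrate reductase (LOC_Os08g36480), the entry of nitrate into assimilation, had 128 tags in FU and 367 in SY63 (log2 ratio -1.51, 95% interval -1.81 to -1.22), with 270 in FR, 595 in MH63 and 706 in ZS97. FU was the lowest of the 5 libraries for this gene. These were the only calls among 16 genes of the class. Transporters of phosphate, sulfate and metals, with related genes, had 4 called higher and 0 lower of 53. They included nicotianamine synthase (LOC_Os07g48980), which makes a chelator of iron and other metals, with 196 tags in FU and 76 in SY63, and a potassium transporter (LOC_Os09g27580) with 200 and 79.

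Redox proteins had 4 members called higher and 2 lower of 115. The cytosolic ascorbate peroxidase OsAPx2 (LOC_Os07g49400), which removes hydrogen peroxide, had 1478 tags in FU, 548 in SY63, 516 in FR, 399 in MH63 and 371 in ZS97. FU alone was high, at a ratio of 2.72 (log2 1.44, 95% interval 1.30 to 1.59). L-ascorbate oxidase (LOC_Os06g37150), an enzyme of the cell wall that oxidises ascorbate, had 338 tags in FU and 73 in SY63, a ratio of 4.66. Copper/zinc superoxide dismutase (LOC_Os03g22810) had 268 and 123 tags, with 365 in MH63 and 129 in ZS97. Metallothioneins, small metal-binding proteins, went both ways with the parents. LOC_Os11g47809 had 817 tags in FU and 399 in SY63, with 1444 in MH63 and 37 in ZS97. LOC_Os05g11320, metallothionein-like protein 3B, had 902 tags in FU and 2002 in SY63, with 0 in MH63 and 7753 in ZS97.

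**Figure D4:**
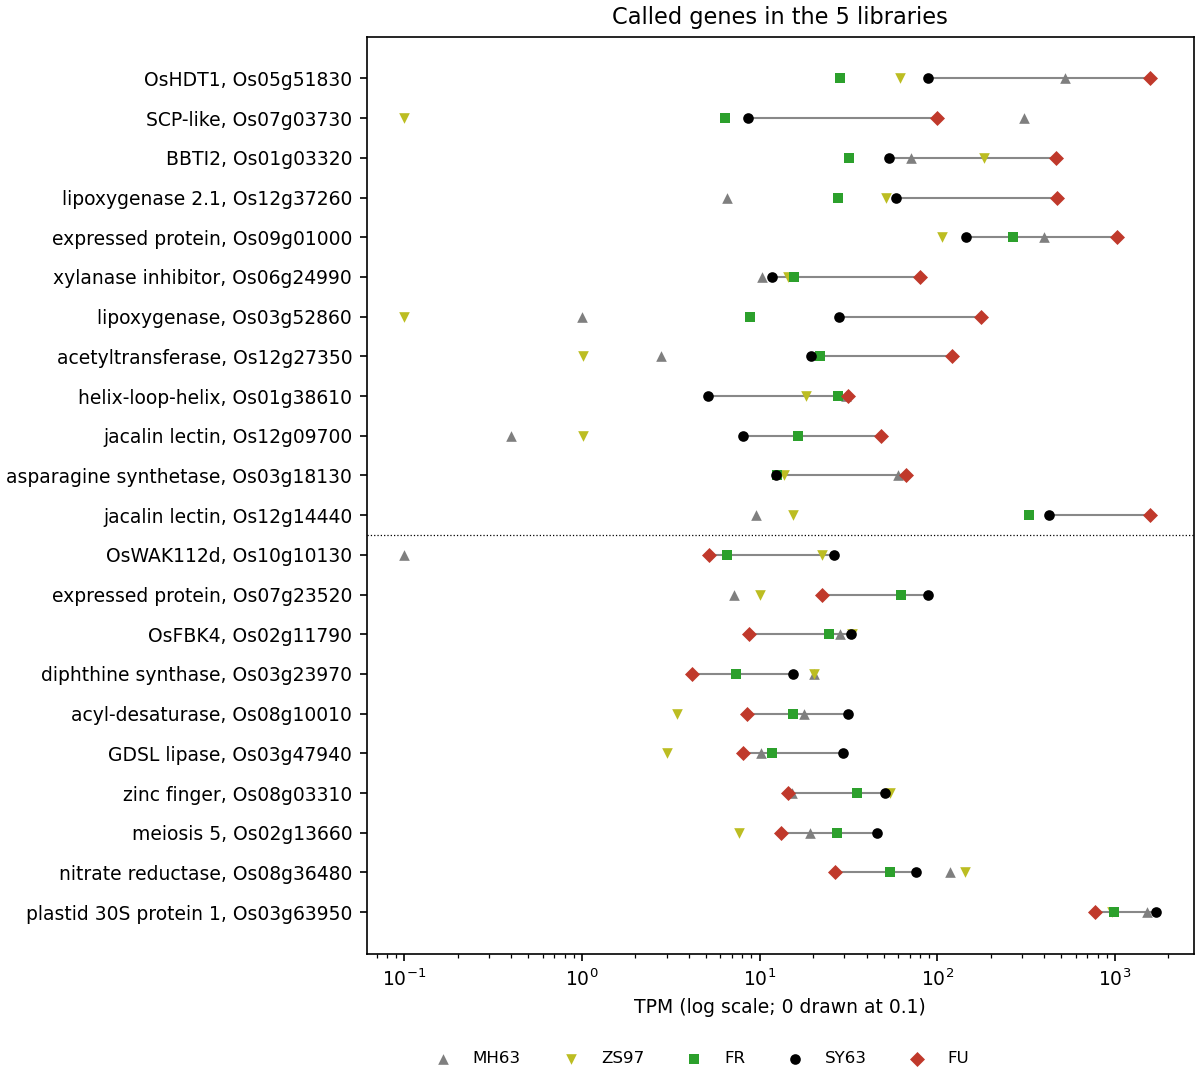
TPM (x axis, log scale, 0 drawn at 0.1) in the 5 libraries of 12 genes called higher (above the dotted line) and 10 called lower in FU than in SY63, with a line from SY63 to FU. Symbols mark the libraries, 1 each. FU lies to the right of both parents for lipoxygenase 2.1 and the xylanase inhibitor (2289 and 383 tags), but between the parents for the SCP-like gene (478 tags, with 1550 in MH63 and 0 in ZS97).

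Core histones, the proteins around which DNA is wound, and linker histones were mostly lower in FU. Of 29 genes with at least 20 tags, 4 were called lower and 0 higher, 22 had a log2 ratio below 0, and the median was -0.53. Together they had 11489 tags in FU, 15876 in SY63, 15668 in FR, 22545 in MH63 and 12377 in ZS97. By member, however, FR was low as well: its median log2 ratio to SY63 was -0.35, and that of FU to FR was -0.02. LOC_Os09g38020 had 663 tags in FU and 1402 in SY63, with 1133 in FR, 2043 in MH63 and 931 in ZS97. A histone H3 gene (LOC_Os06g06510) had 175 tags in FU and 424 in SY63, with 154 in FR and 24 and 17 in the parents. LOC_Os12g25120 had 166 and 350 tags, and LOC_Os05g02300 had 61 and 149, the latter with 60 in FR. The RNAi hybrid therefore had counts like those of FU in 2 of the 4 genes and counts between FU and SY63 in the other two. The most abundant member, histone H1 LOC_Os06g04020, was not called, with 2953 tags in FU and 4876 in SY63. Another abundant member, histone H3 LOC_Os03g27310, had 2457 in FU and 2297 in SY63.

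Genes of the cell cycle and of DNA replication, during which histones are made, had a median of -0.26 over 128 members, and 85 had a log2 ratio below 0. FR was low as well: the median log2 ratio of FR to SY63 was -0.19, and that of FU to FR was -0.06. Of the 128 members, 3 were called lower and 1 higher in FU. The cyclin LOC_Os12g39830 had 36 tags in FU and 94 in SY63, and the cyclin LOC_Os08g37390 had 9 and 40. A kinesin (LOC_Os03g02290), a motor protein on microtubules, had 37 and 90. FR had 60, 29 and 38 tags in these genes, in that order. The higher gene was cyclin-dependent kinase E-1 (LOC_Os10g42950), with 103 tags in FU and 50 in SY63. MCM2 (LOC_Os11g29380), a subunit of the replicative helicase, had 33 and 59 tags and was not called. RPA1B (LOC_Os03g11540), which binds single-stranded DNA, had 30 tags in FU, 94 in SY63 and 34 in FR, with 10 in MH63 and 6 in ZS97. SY63 was high in this gene beside all other libraries.

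Among 101 other chromatin regulators 3 were called lower and 0 higher, while the median was -0.01. A pair of the 3 are described as C-5 cytosine-specific DNA methylases, enzymes that methylate DNA. LOC_Os07g08500 had 37 tags in FU, 83 in SY63 and 48 in FR, with 13 in MH63 and 14 in ZS97. LOC_Os10g01570 had 19 tags in FU, 62 in SY63 and 34 in FR, with 6 and 3 in the parents. The HMG protein LOC_Os08g01100 had 56 and 130 tags, with 5 and 12 in the parents. In these 3 genes, too, SY63 had the most tags and the parents the fewest.

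The largest loss in TPM was that of plastid-specific 30S ribosomal protein 1 (LOC_Os03g63950), a plastid ribosome-associated protein. It had 3732 tags in FU, 8288 in SY63, 4966 in FR, 7566 in MH63 and 4800 in ZS97 (log2 ratio -1.14, 95% interval -1.20 to -1.08). Ribosomal proteins as a whole did not follow it. Of 257 genes 3 were called higher and 1, this gene, lower, and the median was -0.03. Photosystem and light-harvesting proteins had 2 called higher and 2 lower of 64, a median of 0.04, and 178954 tags in FU against 184668 in SY63. Calvin cycle and photorespiration genes had 1 called higher and 0 lower of 39, with a median of 0.06.

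Where both libraries held 20 tags or more, the lowest ratio was that of OsWAK112d (LOC_Os10g10130), a wall-associated receptor kinase. It had 25 tags in FU, 128 in SY63 and 33 in FR, with 0 in MH63 and 111 in ZS97 (log2 ratio -2.35, 95% interval -3.03 to -1.72). OsFBK4 (LOC_Os02g11790), an F-box protein and hence a likely adaptor of protein degradation, had 42 tags in FU and 159 in SY63, with 123 in FR, 143 in MH63 and 164 in ZS97. In this gene FU alone was low. Diphthine synthase (LOC_Os03g23970), which modifies a translation elongation factor, had 20 and 75 tags, with 101 and 100 in the parents. The acyl-desaturase LOC_Os08g10010, which introduces double bonds into fatty acids, had 41 and 152 tags, with 77 in FR and 89 and 17 in the parents. The GDSL lipase LOC_Os03g47940 had 39 and 143, with 59 in FR and 51 and 15 in the parents. A gene described as meiosis 5 (LOC_Os02g13660) had 64 tags in FU and 223 in SY63, with 136 in FR and 96 and 38 in the parents. SY63 was the highest of the 5 libraries for the desaturase, the lipase and meiosis 5. The desaturase and the lipase were called lower in FR too. An unannotated gene (LOC_Os07g23520) had 108 tags in FU, 429 in SY63 and 313 in FR, beside 36 and 50 in the parents.

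Cell wall genes were divided. Of 132 genes for cell wall polysaccharides and expansins, 5 were called higher and 6 lower, and the median was 0.07. The 2 cellulose synthase-like genes called were higher: CSLF8 (LOC_Os07g36630), of a family that makes mixed-linkage glucan, had 148 tags in FU and 71 in SY63, and CSLA11 (LOC_Os08g33740) had 128 and 47. Glycosyl hydrolases of family 16, which cut and rejoin wall glucans, were lower in LOC_Os02g46910 (83 tags in FU, 193 in SY63) and LOC_Os04g53950 (54 and 115) and higher in LOC_Os07g29750 (67 and 25). Expansins, which loosen walls, were likewise split. LOC_Os09g29690 had 64 tags in FU and 8 in SY63, whereas LOC_Os03g44290 had 14 and 61. Lipid transfer proteins (LTPL) had 5 called higher and 4 lower of 52, with a median of 0.28. LTPL9 (LOC_Os11g02424) had 686 tags in FU and 341 in SY63, and LTPL122 (LOC_Os04g46830) had 448 and 934. Dirigent proteins, which guide the coupling of lignan and lignin precursors, had 1 called in each direction of 12. LOC_Os12g07580 had 79 tags in FU and 21 in SY63. LOC_Os12g09720 had 110 and 320, with 0 in MH63 and 608 in ZS97.

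Some genes were present in only 1 of the libraries. Tags in FU and none in SY63 were found for 1482 genes, of which 31 were called, and the reverse for 1144 genes, of which 8 were called. The median count of such genes was 3 tags on either side. LOC_Os07g32710, described as a retrotransposon protein, had 250 tags in FU and 0 in SY63, at least 83.9-fold higher, with 113 in FR, 48 in MH63 and 2 in ZS97. Thionins are small antimicrobial peptides. The thionin-like gene LOC_Os07g24830 had 221 tags in FU and 3 in SY63, a ratio of 74.2 with a counting interval from 25.1 to 363, and had 16 tags in FR, 68 in MH63 and 2 in ZS97. For both genes MH63 had far more tags than ZS97. In the other direction, LOC_Os12g33130 had 2 tags in FU and 64 in SY63, a ratio of SY63 to FU of 31.8 (8.44 to 268), with 15 tags in MH63 and 93 in ZS97. The retrotransposon gene LOC_Os02g27850 had 0 and 26 tags, at least 8.60-fold lower in FU.

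Retrotransposons copy themselves through RNA and are usually kept silent by chromatin marks. Of 149 genes described as retrotransposon proteins with at least 20 tags, 8 were called higher and 3 lower, and the median was 0.01. The most abundant, LOC_Os05g13940, had 6877 tags in FU, 3327 in SY63, 2562 in FR, 1186 in MH63 and 2079 in ZS97, a ratio of 2.08. LOC_Os04g34170 had 921 tags in FU and 207 in SY63. DNA transposon genes had 4 called higher and 1 lower of 153, with a median of 0.06. Together the retrotransposon genes had 21750 tags in FU and 16570 in SY63, a total in which LOC_Os05g13940 is included.

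Many calls carried no functional description. Genes described only as expressed or hypothetical proteins made up 91 of the 467 called higher and 41 of the 173 called lower. LOC_Os09g01000 was the most abundant of them in FU, with 4938 tags, beside 709 in SY63, 1332 in FR, 1993 in MH63 and 527 in ZS97 (log2 ratio 2.81, 95% interval 2.70 to 2.93). LOC_Os12g33120 had 2302 tags in FU, 5095 in SY63 and 5246 in FR, with 13720 in MH63.

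Some large classes had few calls. Among all genes with at least 20 tags, 2.87% were called higher and 1.05% lower. Of 213 F-box proteins 2 (0.939%) were called higher and 1 (0.469%) lower, with a median of -0.11. Of 173 pentatricopeptide repeat proteins, which process organelle RNA, 2 (1.16%) were called higher and 0 lower, with a median of -0.08. Of 72 immune receptors of the NBS-LRR type 0 were called higher and 1 (1.39%) lower, with a median of 0.02. Receptor-like kinases were called about as often as all genes, with 6 of 202 (2.97%) higher and 2 (0.990%) lower. Proteasome subunits (30), aminoacyl-tRNA synthetases (56) and dehydration and cold response proteins (34) held no called gene. At the shares of all genes, classes of this size would hold few. Their medians were 0.11, -0.01 and 0.20.

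Separately, the authors counted genome-matched tags, those that all 5 libraries shared and that could be placed on the rice genome. Of 7538 such tags, 51 (0.677%) were called higher and 39 (0.517%) lower in FU than in SY63 by the same test. The tags below matched 1 position with no mismatch, and capitals mark the NlaIII site. They are shown as the sequences actually counted in this assay, the first for its high and the others for their low count in FU. Chromosomes and positions are those deposited, with the build not given in the sources used here, and which gene lies at each position was not looked up.
chr11, position 28409830, + strand: CATGcccagctatggcttggg
chr1, position 12301499, + strand: CATGcaatgcaatgatgaacc
chr1, position 12301537, + strand: CATGacatccaaaagttcact

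The tag on chromosome 11 had 571 copies in FU, 122 in SY63, 103 in FR, 284 in MH63 and 884 in ZS97 (log2 ratio of FU over SY63 2.24, 95% interval 1.95 to 2.53). FU lay between the parents, and both other hybrids lay below them. The first tag on chromosome 1 had 645 copies in FU and 1456 in SY63, with 1978 in FR, and its neighbour had 237 and 516, with 515 in FR. FU was the lowest of the 5 libraries for both tags of this pair.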

How the data were processed

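Total RNA of seedlings was made into tag libraries by the authors with NlaIII and MmeI and sequenced on an Illumina HiSeq instrument, with 1 library for each of 5 genotypes. According to the methods of the study, clean tags were matched to tags of the MSU rice cDNA annotation, version 6.1, with at most 1 mismatch, and tags of several genes were removed. The study lists 20170 genes with perfectly matched tags in FU and 19832 in SY63, the same numbers as the genes with a tag here. FR and MH63 matched as well, and ZS97 nearly so. Whether tags with a mismatch entered the gene counts is not stated outright, and the software used is not given in the sources used here. The deposited count of a gene is its number of unambiguous clean tags, not normalized by the authors. The deposited TPM is this count scaled by the total of clean tags of the library, with 0.01 written by the authors for 0, and the totals of clean tags were recovered from counts and TPM. Columns with the authors' log2 ratios, p-values and false discovery rates, and shortened tables, were not used. The deposited count table of genome-matched tags was used for tags only, since it names no genes.

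FU was tested against SY63 with the test for tag counts by Audic and Claverie, exact and 2-sided (2 times the smaller tail), using clean-tag totals and Benjamini-Hochberg adjustment over 21314 genes. Calls took 0.01 TPM for 0. Ratio intervals are exact 95% intervals for 2 Poisson counts. On simulated FU and SY63 counts of 21314 genes with counting error only, 100% of genes raised 3-fold were called, and 88% of genes lowered to 0.333 of their level. The changed genes were drawn from the more abundant ones only, so these shares do not cover genes with few tags. edgeR's quasi-likelihood test needs replicates and could not be fitted.

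The comparison, the members, the word lists of the 60 classes and the rule for named genes were chosen with earlier results of these data known. Word lists were corrected after the tables were seen, so that short abbreviations match whole words only. Named genes were OsHDT1, the 15 largest log2 ratios per direction among called genes with 20 tags in both libraries, the 10 largest changes in TPM per direction, the 8 most abundant per direction among called genes with up to 3 tags in the other library, up to 4 leading called members of each class and up to 2 in the opposite direction, and genes named in the study's text or primers. Other genes were named after their values were seen: called members that complete a class's count, the uncalled members set beside them, and BBTI4, BBTI7 and BBTI13. Alternatives were other library sizes (edgeR 4.0.16 TMM, DESeq2 1.42.0), filters, tests, thresholds and assumed variation. R 4.3.3, Python 3.11.15 and scipy 1.17.1 were used.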

Additional observations from a re-analysis of the deposited data

How the results depend on the processing

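No paired analysis was possible because each genotype had 1 library, and for the same reason no library could be left out. Other library sizes (tags on genes, TMM, DESeq2 size factors), a minimum of 10 tags, Fisher's exact test and adding 1 to every TPM gave between 401 and 483 genes higher and between 154 and 210 lower, within 1.5 times the 467 and 173 of the report. The scalings moved all log2 ratios by between -0.05 and -0.02, and the share of higher calls went from 73.0% to 65.6% with TMM. The counts moved further with the thresholds: 118 higher and 30 lower at a log2 ratio of at least 2, and 948 higher and 533 lower at a false discovery rate of 0.05. They moved most with the assumed coefficient of variation between libraries: 219 higher and 52 lower at 0.1, 33 and 3 at 0.2, and 1 and 0 at 0.4, where the 1 gene was LOC_Os07g32710. OsHDT1 kept its log2 ratio of 4.16 but lost its call at 0.4, and kept the call under the other 7 alternatives. Without genes called between MH63 and ZS97, an alternative chosen after seeing the data, 112 genes were lower and 321 higher. Of 220 other called genes named by rule, none reversed, and 104, 194 and 219 lost the call at 0.1, 0.2 and 0.4. Of the 60 class medians, 0 moved by over 0.1 with another scaling, 8 did with no minimum of tags, and 13 of 58 did with a minimum of 100 tags. More members were called higher than lower in between 38 and 44 classes.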

Other observations

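The following genes belong to no class of the report and were picked after their values were seen. Osmotin (LOC_Os12g38170), a PR protein of the thaumatin type, was called higher in FU, with 1799 tags in FU, 596 in SY63, 933 in FR, 962 in MH63 and 593 in ZS97. Neighbouring genes described as inhibitor I family proteins on chromosome 12 were called higher too. LOC_Os12g36220 had 1779 tags in FU and 617 in SY63, with 14 in MH63 and 103 in ZS97. LOC_Os12g36210 had 1395 and 558, with 11 in MH63 and 174 in ZS97. The hybrids were far above both parents in this pair, as they were for the jacalin-like lectins of the same chromosome. Members of the ribonuclease T2 family were called higher in FU, LOC_Os09g36680 with 1360 tags against 566 in SY63 and LOC_Os09g36700 with 331 against 104, and FR lay with FU in both, at 1277 and 414 tags. RALF peptides act as signals at the cell surface, and RALFL29 (LOC_Os10g42020) had 312 tags in FU and 85 in SY63, and RALFL9 (LOC_Os01g15320) had 322 and 140.

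By chromosome, the share of genes with at least 20 tags that were called higher in FU ran from 2.22% of 765 on chromosome 10 to 4.23% of 804 on chromosome 12. The share called lower was smallest on chromosome 5, with 6 of 1359 genes, and largest on chromosome 8, with 18 of 1002 genes. These shares are descriptions, and neighbouring genes are not independent. Runs of 3 neighbours called higher, beside the Bowman-Birk and SCP-like loci, lay from LOC_Os04g49160 to LOC_Os04g49210, from LOC_Os07g34260 to LOC_Os07g34520 and from LOC_Os12g27220 to LOC_Os12g27350. No run of 3 neighbours called lower was found.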
